A study of Homo sapiens with 4 samples.

Results

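Small noncoding RNA genes were taken from a table of nuclear RNA reads of A549 cells, a human non-small cell lung cancer line, made to follow RNA on both sides of gene ends after ultraviolet (UV) irradiation. A row of the table was counted as a small noncoding RNA when its RefSeq accession was of the NR (noncoding) type and its gene end lay less than 500 nt beyond its gene start, with RPPH1 left out. This rule took 91 of 4208 rows: 55 microRNA (MIR) rows, 19 box C/D snoRNA (SNORD) rows, 3 box H/ACA snoRNA (SNORA) rows, 1 Cajal body RNA (SCARNA) row and 13 other rows. In the UV+ group, A549 cells had been irradiated with UV at 254 nm and 40 J/m2 with 16 h of recovery before harvest. In the UV- group, A549 cells had not been irradiated. Each group had 2 libraries of ribosomal RNA-depleted nuclear RNA, described by the study as independent biological replicates, and no other allele, transgene or agent was named for either group. A549 is 1 cell line, and the nuclear extract holds none of the cytoplasmic pool of these RNAs.

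MicroRNAs are cut from long primary transcripts, first in the nucleus by DROSHA and DGCR8 and then in the cytoplasm by DICER1, and the mature strand is loaded onto an Argonaute protein. Many microRNA and nearly all snoRNA genes in human lie inside longer host genes, whereas vault RNAs, the minor spliceosomal snRNAs, telomerase RNA and SCARNA2 have promoters of their own. Box C/D snoRNAs guide 2'-O-methylation and box H/ACA snoRNAs guide pseudouridylation of other RNAs, and both are mostly trimmed out of spliced introns of their host transcripts.

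The loci that the results turn on were first compared by sequence. The mature microRNAs below, from RefSeq (GRCh38.p14), are shown for some of the families and loci described below, and the capitals mark the seed, bases 2 to 8, which pairs with target mRNAs. RefSeq mature sequences were matched for 48 of 54 MIR symbols. Among those printed, 4 loci shared the miR-29 seed, 3 the let-7 seed, 2 the seed of miR-221 and miR-222 and 2 the miR-30 seed.
hsa-miR-21-5p: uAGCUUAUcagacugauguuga
hsa-let-7i-5p: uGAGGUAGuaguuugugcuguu
hsa-let-7d-5p: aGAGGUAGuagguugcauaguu
hsa-let-7f-5p: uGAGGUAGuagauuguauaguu
hsa-miR-29a-3p: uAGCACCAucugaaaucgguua
hsa-miR-29b-3p: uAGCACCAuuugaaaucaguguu
hsa-miR-29c-3p: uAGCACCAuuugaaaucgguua
hsa-miR-30a-5p: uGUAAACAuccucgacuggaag
hsa-miR-30c-5p: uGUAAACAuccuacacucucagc
hsa-miR-221-3p: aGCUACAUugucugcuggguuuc
hsa-miR-222-3p: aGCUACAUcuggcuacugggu
hsa-miR-34a-5p: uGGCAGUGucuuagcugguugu

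The 3 vault RNA genes, which rose in both windows, lie on the plus strand of chromosome 5 (GRCh37), VTRNA1-1 at chr5:140090861-140090958, VTRNA1-2 at chr5:140098511-140098598 and VTRNA1-3 at chr5:140105744-140105831. Their genes are shown 5' to 3' because they are near-copies of each other, and the capitals mark the letters GTTCGANNC, where N is any base. These letters are the core of the B box, an internal promoter element of RNA polymerase III genes such as tRNA and vault RNA genes.
VTRNA1-1: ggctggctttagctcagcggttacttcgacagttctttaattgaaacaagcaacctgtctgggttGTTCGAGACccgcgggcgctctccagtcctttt
VTRNA1-2: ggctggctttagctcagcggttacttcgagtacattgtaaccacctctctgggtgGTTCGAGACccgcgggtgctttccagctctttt
VTRNA1-3: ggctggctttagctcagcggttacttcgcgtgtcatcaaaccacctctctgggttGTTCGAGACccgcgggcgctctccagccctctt
A longer form, with 1 further G before and 1 further C after these letters, was searched first, on both strands of the 500-nt upstream window, and matched VTRNA1-2 and MIR4521 among the members and 0.0713% of 4205 windows. The shorter core was chosen after that result was seen. It matched 7 of 91 member windows (7.69%), namely the 3 vault RNA genes and MIR4521 on the gene's strand and PCNA-AS1, SNORA40 and SNORD5 on the other strand, against 1.76% of all 4205 windows. A match describes letters, not a bound site.

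The upstream window was the 500 nt ending at the gene end and the downstream window the 500 nt after it. Since the members were 48 to 482 nt long (median 88 nt), the upstream window was longer than every member gene and also held sequence before it, and the gene end is the end of a precursor or mature RNA and not a polyadenylation site (PAS). Reads were 100 nt, so that for the 71 members shorter than 100 nt no full read could lie within the gene: the values report precursors, host transcripts and flanking RNA, not mature microRNA. Values are reads divided by the size factor of the library, called normalized reads below. Before scaling, the libraries held 481798 and 389697 upstream reads in UV+ libraries and 262657 and 453821 in UV-, and 92566 and 76473 downstream reads in UV+ and 50814 and 81339 in UV-. Members took 2.99% and 2.75% of the upstream reads in the UV+ libraries, against 1.91% and 1.97% in the UV- libraries, and 6.90% and 6.18% of the downstream reads in UV+, against 7.85% and 8.14% in UV-. MDM2, a p53 target that rises after DNA damage, had 275 and 259 normalized upstream reads in UV+ libraries and 44.5 and 50.0 in UV-. AKR1B10 (2627 and 2532 in UV+, 3279.9 and 3589 in UV-) and KRT18 (209.8 and 290.2 in UV+, 637 and 799 in UV-), both abundant in A549, were detected in every library, and the leukocyte marker PTPRC, the endothelial marker PECAM1 and the fibroblast marker COL1A1 had no row.

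In the upstream window, 27 of 91 members (29.7%) were higher in UV+ and 12 (13.2%) were lower (limma, Benjamini-Hochberg adjusted p under 0.05 over all 4208 rows). Over all rows, 11.7% were higher and 20.7% were lower. The median log2 fold change, computed on log2(normalized reads + 1) as are all fold changes here, was 0.46 for members and -0.24 for all rows. In the downstream window, 21 members (23.1%) were higher and 13 (14.3%) were lower, against 11.7% and 9.41% of all rows, with a median of 0.05 for members and 0.24 for all rows. The calls fell on the same side in both windows: 16 members were higher in both, 9 were lower in both and 0 had opposite calls. In all, 48 members were called in a window and 43 in neither. Of the MIR rows, 15 were higher and 10 lower upstream and 13 were higher and 10 lower downstream. The 13 other rows gave 6 higher and 0 lower in each window. Among these calls, VTRNA1-1, VTRNA1-2 and LINC00515 in both windows and LINC01023 and PCNA-AS1 downstream came from rows that entered the table through UV+ alone. That entry, described below, favored a higher value, so that the one-sided count is a description. The 19 SNORD rows gave 4 higher and 2 lower upstream and 2 higher and 3 lower downstream. The 3 SNORA rows and the SCARNA row gave 1 higher each upstream and none downstream. The 43 members called in neither window had log2 fold changes from -1.64 to 2.32 upstream and from -1.83 to 2.23 downstream. In bulk RNA, less RNA per cell and fewer cells that make it cannot be told apart. In every one of the 39 upstream and 34 downstream calls, the UV+ and UV- libraries did not overlap, which a call from 2 against 2 libraries nearly requires. Uncalled members, such as MIR193B and MIR324 upstream, did not overlap either. The share of all rows without overlap was not computed, so that this adds no support to the calls.

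These counts rest on small numbers of reads. By the methods of the study, the table keeps only genes that reached 10 reads in either condition. By the recovered reads, 24 members reached 10 reads in both windows in UV+ alone and 11 in UV- alone. A further 2 members, MIR505 and MIR4737, did so in neither condition. A member that entered the table through 1 condition was bound to be high there. Of the called members, VTRNA1-1, VTRNA1-2, PCNA-AS1, LINC00515, LINC01023, MIR132, MIR3190, MIR3677, MIR3929, MIR4477B, MIR4514, MIR4679-1 and MIR4795 reached 10 reads through UV+ alone, and MIR29B1, MIR29B2, MIR573, SNORD116-4, SNORD116-24 and SNORD116-30 through UV- alone, so that their values below are descriptions and their p-values no support for the direction. Among the 54 members that reached 10 reads in both windows in both conditions, 17 (31.5%) were higher and 9 (16.7%) lower upstream, against 12.6% and 18.4% of the 1945 rows that did so. Downstream, 10 of these members (18.5%) were higher and 8 (14.8%) lower, against 11.8% and 7.61% of these rows. With a UV- library left out, limma called 0 members upstream at adjusted p under 0.05, with 26 higher and 9 lower at unadjusted p under 0.05 without replicate 1 and 27 higher and 9 lower without replicate 2. Downstream, 1 to 6 members were higher and 0 to 2 lower with 1 library left out. The downstream counts of 0 lower came without a UV+ library, where 21 and 12 members were lower at unadjusted p under 0.05.

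**Figure D1:**
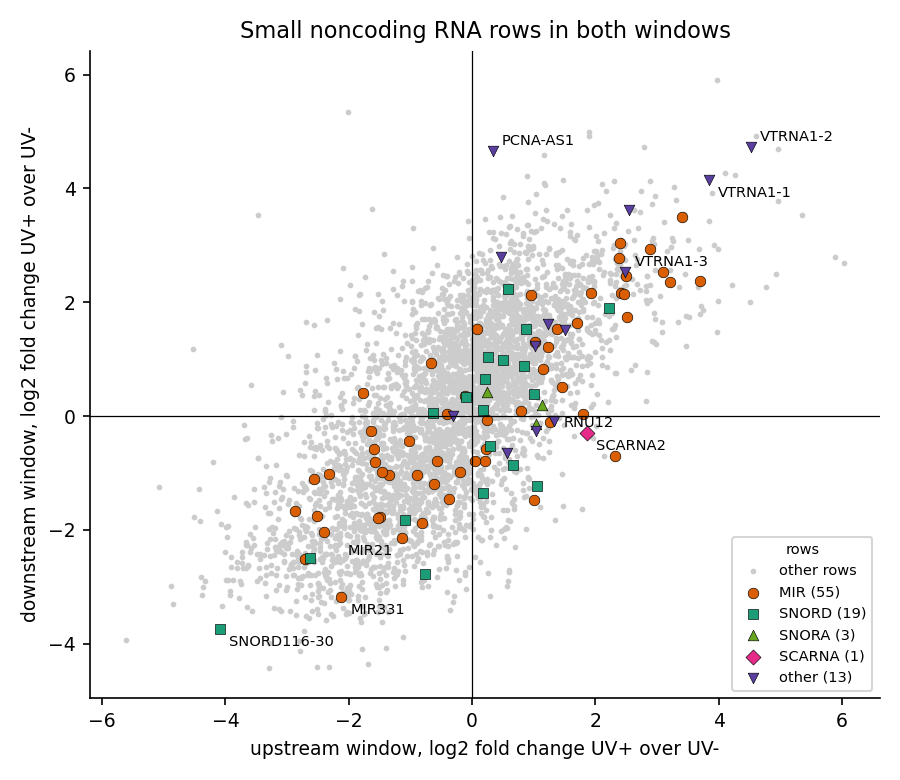
Log2 fold change UV+ over UV- in the upstream window (x axis) and in the downstream window (y axis) for the 91 small noncoding RNA rows, colored by group, over the other rows in grey. The vault RNAs lie at the upper right (3.84 and 4.15 for VTRNA1-1) and SNORD116-30 at the lower left (-4.09 and -3.74), while SCARNA2 and RNU12 lie to the right at a downstream change near 0.

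Most members lay inside other transcribed genes. A longer annotated gene (GENCODE 44, lifted to GRCh37) covered 61 members on the same strand, among them 34 MIR, 19 SNORD and 3 SNORA rows. Of the 34 MIR rows inside such a gene, 6 (17.6%) were higher and 7 (20.6%) lower upstream (median log2 fold change -0.60) and 5 (14.7%) were higher and 7 (20.6%) lower downstream (median -0.74). Of the 21 MIR rows outside one, 9 (42.9%) were higher and 3 (14.3%) lower upstream (median 1.71) and 8 (38.1%) were higher and 3 (14.3%) lower downstream (median 1.53). Over all rows the shares were 11.7% higher and 20.7% lower upstream and 11.7% and 9.41% downstream, so that the upstream lower share of the MIR rows inside a gene was near that of all rows. Entry into the table, described above, bears on these shares. MIR132, MIR3190, MIR3929, MIR4477B, MIR4514, MIR4679-1 and MIR4795, outside a gene and called higher in a window, entered through UV+ alone, as did MIR3677 inside one. In each window, most of the higher calls outside a gene came from these rows. MIR29B1, MIR29B2 and MIR573, inside a gene and called lower, entered through UV- alone. The shares and medians are therefore descriptions, and the difference between both kinds of MIR rows was not tested. No annotated exon lay on the gene's strand in either window of 43 members, the whole of both windows was exon for 15, and 19 had an exon of a gene on the other strand in a window.

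The vault RNA genes rose in both windows. Vault RNAs are short RNA polymerase III transcripts, part of which is bound in the vault ribonucleoprotein particle. VTRNA1-1 had 37.4 and 32.9 normalized upstream reads in UV+ libraries, against 1.39 and 1.64 in UV- libraries, a log2 fold change of 3.84 ± 0.63. VTRNA1-2 had 50.4 and 26.1 in UV+ and 0 and 1.64 in UV- (4.52 ± 0.75). VTRNA1-3, the copy with the most upstream reads, had 243 and 138.3 in UV+ and 37.6 and 27.1 in UV- (2.49 ± 0.32). Every UV+ library was above both UV- libraries at all 3 genes. Past the gene end the reads also rose, to 57.7 and 52.2 in UV+ against 2.78 and 1.64 in UV- at VTRNA1-1 (4.15 ± 0.52). VTRNA1-2 had 75.6 and 93.8 downstream reads in UV+ and 1.39 and 3.28 in UV- (4.74 ± 0.49). VTRNA1-3 had 144 and 86.1 in UV+ and 19.5 and 17.2 in UV- (2.54 ± 0.35). The adjusted p-values were 0.000613, 0.00069 and 0.000131 upstream and 0.0015, 0.000536 and 0.00229 downstream. VTRNA1-1 and VTRNA1-2 entered the table through UV+ alone, so that of the 3 genes only the test of VTRNA1-3 bears on the direction. How the reads divide among these near-copies is uncertain. All 3 genes lie inside an annotated gene without a symbol, whose exons cover 159 nt of the upstream and 169 nt of the downstream window of VTRNA1-1 and 0 nt of the windows of VTRNA1-2 and VTRNA1-3.

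Other RNAs with promoters of their own rose upstream and had few reads past the gene end. SCARNA2, a small Cajal body RNA, had 2368 and 1721 upstream reads in UV+ libraries and 508 and 602 in UV- (1.87 ± 0.21, adjusted p = 5.53e-05), and 16.3 and 1.93 downstream in UV+ and 5.57 and 10.7 in UV- (-0.30 ± 0.88, adjusted p = 0.816). RNU12, the U12 snRNA that recognizes the branch site of U12-type introns, had 1856 and 1849.6 upstream in UV+ and 711 and 763 in UV- (1.33 ± 0.19, adjusted p = 0.00025). TERC, the template RNA of telomerase, had 1312 and 1009 in UV+ and 603 and 526 in UV- (1.03 ± 0.21, adjusted p = 0.00252). In these 3 genes both UV+ libraries were above both UV- libraries upstream, and the libraries overlapped downstream. Downstream, RNU12 had 6.51 and 10.6 reads in UV+ and 5.57 and 13.9 in UV- (-0.08 ± 0.66) and TERC had 20.3 and 10.6 in UV+ and 19.5 and 16.4 in UV- (-0.26 ± 0.49). The other minor spliceosomal snRNAs did not pass the test, although their upstream libraries did not overlap. RNU11, which pairs with the 5' splice site of U12-type introns, had 119 and 176 upstream in UV+ and 96.02 and 98.4 in UV- (0.57 ± 0.26, adjusted p = 0.109). RNU4ATAC, the U4atac snRNA of the minor tri-snRNP, had 26.8 and 40.6 in UV+ and 15.3 and 16.4 in UV- (1.01 ± 0.43, adjusted p = 0.0865). An exon of a gene on the other strand covers 147 nt of the upstream window of RNU12, 57 nt of that of RNU11 and 236 nt of that of RNU4ATAC, and whether reads were counted by strand is not stated in the sources used here.

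The U6 snRNA, the catalytic RNA of the major spliceosome, had 2 rows named RNU6-2 on chromosome 19 (GRCh37 chr19:893484-893590 and chr19:1021521-1021627, plus strand), which are copies of one sequence family, so that their reads are uncertain. The first had 4.88 and 7.74 upstream in UV+ and 1.39 and 1.64 in UV-, and the same 4 values downstream (1.51 ± 0.85, adjusted p = 0.184 upstream and 0.177 downstream). The second had 9.76 and 10.6 in UV+ and 5.57 and 2.46 in UV- upstream (1.23 ± 0.72, adjusted p = 0.198). Neither row was called.

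**Figure D2:**
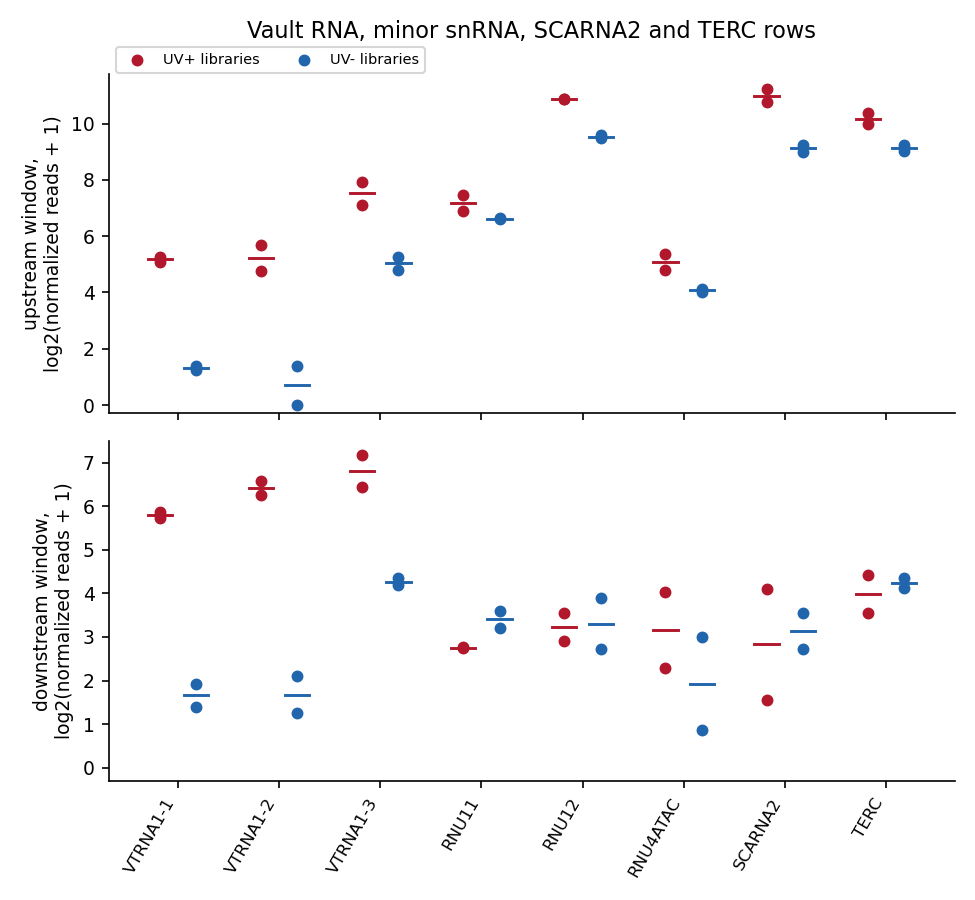
Log2(normalized reads + 1) in each library for vault RNA, minor snRNA, SCARNA2 and TERC genes, in the upstream window (top) and the downstream window (bottom), with UV+ libraries in red, UV- libraries in blue and bars at the means. The UV+ libraries lie above the UV- libraries in the upstream window of all 8 genes, and among these in the downstream window of the 3 vault RNA genes only.

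Among the microRNA loci, MIR21, MIRLET7I and loci of the miR-29 and miR-30 families fell. MIR21, whose microRNA is abundant in many tumors, had the most reads of all MIR rows. MIR21 (GRCh37 chr17:57918627-57918698, plus strand) had 819.7 and 1005 upstream reads in UV+ libraries and 1884 and 2121 in UV- (-1.14 ± 0.20, adjusted p = 0.00102). Downstream, MIR21 had 434 and 491 in UV+ and 2093 and 1991 in UV- (-2.14 ± 0.18, adjusted p = 0.000164). Both UV+ libraries were below both UV- libraries in each window. Both windows of MIR21 are annotated as exon of VMP1, an autophagy gene, over all 500 nt, and the upstream window shares 254 nt with the downstream window of VMP1. The VMP1 row itself had 1322 and 1397 downstream reads in UV+ and 3178 and 3417 in UV-, a log2 fold change of -1.28 ± 0.17, so that MIR21 and VMP1 are not independent measurements.

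MIRLET7I, a let-7 locus, had 27.6 and 25.2 upstream reads in UV+ libraries and 90.5 and 66.4 in UV- (-1.52 ± 0.33, adjusted p = 0.00392) and 82.1 and 108 downstream in UV+ and 298 and 363 in UV- (-1.79 ± 0.24, adjusted p = 0.00229). The 2 other let-7 loci with the same seed, MIRLET7D and MIRLET7F1, which share the host gene MIRLET7A1HG on chromosome 9, were not called. MIRLET7D had 25.2 and 12.6 upstream in UV+ and 30.6 and 18.9 in UV- (-0.41 ± 0.49). MIRLET7F1 had 146 and 87.1 in UV+ and 80.7 and 112 in UV- (0.24 ± 0.30). At these loci the UV+ and UV- libraries overlapped, unlike at MIRLET7I, and the difference between the loci was not tested.

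The 4 miR-29 loci, a family known for targeting collagen mRNAs, lie in 2 pairs. MIR29A and MIR29B1 lie in LINC-PINT on chromosome 7, and MIR29C and MIR29B2 in MIR29B2CHG on chromosome 1. MIR29A had 13.8 and 26.1 upstream reads in UV+ libraries and 55.7 and 45.1 in UV- (-1.35 ± 0.41, adjusted p = 0.0229), and MIR29C had 26.8 and 12.6 in UV+ and 76.5 and 55.8 in UV- (-1.77 ± 0.41, adjusted p = 0.00633). MIR29B1 had 36.6 and 32.9 downstream in UV+ and 71.0 and 71.4 in UV- (-1.02 ± 0.30, adjusted p = 0.0374), and MIR29B2 had 28.5 and 13.5 in UV+ and 79.3 and 60.7 in UV- (-1.77 ± 0.40, adjusted p = 0.0168). Each pair shares a stretch, since the upstream window of MIR29A overlaps the downstream window of MIR29B1 by 288 nt and that of MIR29C overlaps the downstream window of MIR29B2 by 409 nt, so that the 4 calls come from 2 regions. With DESeq2, both calls of the chromosome 7 pair were lost (adjusted p = 0.0961 for MIR29A and 0.146 for MIR29B1), and MIR29B1 and MIR29B2 entered the table through UV- alone. The UV+ libraries were below the UV- libraries in both regions. Past the end of MIR29C the direction was not the same: it had 219 and 121 downstream reads in UV+ and 141 and 107 in UV- (0.40 ± 0.31, adjusted p = 0.345). MIR29A had 12.2 and 9.67 downstream in UV+ and 23.7 and 23.0 in UV- (-1.03 ± 0.45, adjusted p = 0.119).

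MIR30A and MIR30C2 of the miR-30 family lie in LINC00472 on chromosome 6 and fell in both windows. MIR30A had 8.94 and 13.5 upstream reads in UV+ libraries and 69.6 and 69.7 in UV- (-2.55 ± 0.40, adjusted p = 0.000438) and 32.5 and 23.2 downstream in UV+ and 59.8 and 60.7 in UV- (-1.10 ± 0.33, adjusted p = 0.0395). MIR30C2 had 6.51 and 9.67 upstream in UV+ and 64.0 and 64.8 in UV- (-2.87 ± 0.43, adjusted p = 0.000327) and 7.32 and 15.5 downstream in UV+ and 52.9 and 24.6 in UV- (-1.67 ± 0.52, adjusted p = 0.0443). With DESeq2, the upstream calls of both loci held and the downstream calls did not. Of the miR-30 loci elsewhere, MIR30B had 57.7 and 53.2 downstream reads in UV+ and 113 and 83.7 in UV- (-0.80 ± 0.28, adjusted p = 0.0668). MIR30D had 48.8 and 35.8 in UV+ and 61.2 and 64.8 in UV- (-0.58 ± 0.31, adjusted p = 0.184). Neither was called in a window.

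Further MIR loci fell. MIR331 had 8.94 and 15.5 downstream reads in UV+ and 141 and 93.5 in UV- (-3.18 ± 0.38, adjusted p = 0.00138) and also fell upstream (-2.13 ± 0.56, adjusted p = 0.0121). MIR3685 follows MIR331 on the same strand of chromosome 12 and had 6.51 and 19.3 upstream in UV+ and 82.1 and 77.9 in UV- (-2.71 ± 0.46, adjusted p = 0.000842). In both loci the UV+ libraries lay below the UV- libraries in each window. MIR138-1 had 8.94 and 4.84 downstream in UV+ and 36.2 and 25.4 in UV- (-2.04 ± 0.51, adjusted p = 0.0236) and fell upstream too (-2.40 ± 0.57). MIR630, in an exon of the ubiquitin ligase gene ARIH1, had 31.7 and 17.4 downstream in UV+ and 87.7 and 91.9 in UV- (-1.89 ± 0.35, adjusted p = 0.0085), and its upstream window overlaps the downstream window of ARIH1 by 242 nt. MIR573, in an intron of the helicase gene DHX15, had 3.25 and 2.90 upstream in UV+ and 22.3 and 22.1 in UV- (-2.51 ± 0.62, adjusted p = 0.00864).

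**Figure D3:**
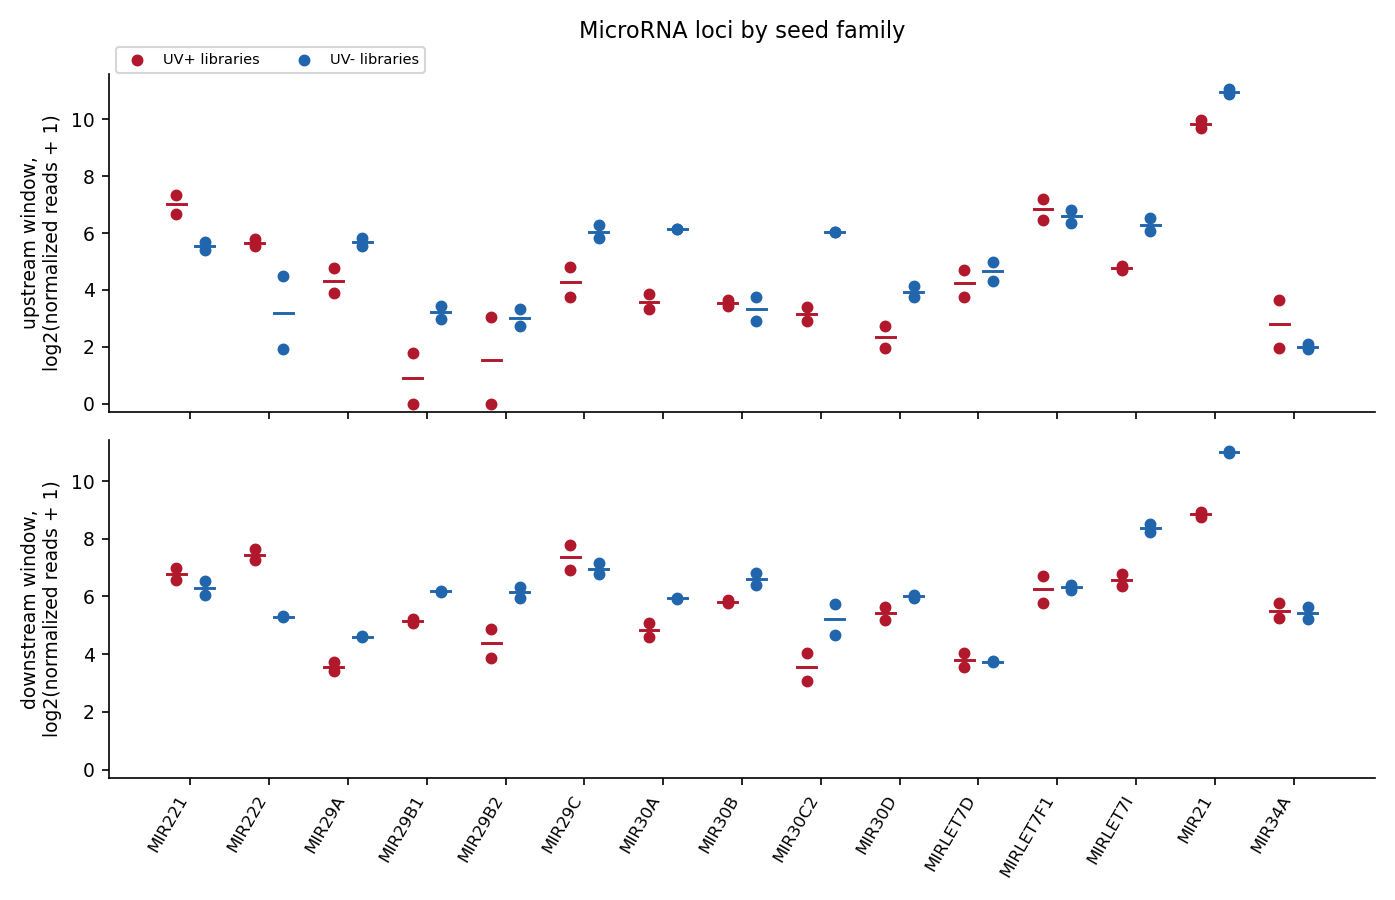
Log2(normalized reads + 1) in each library for microRNA loci ordered by seed family, in the upstream window (top) and the downstream window (bottom), with UV+ libraries in red, UV- libraries in blue and bars at the means. MIR221 and MIR222 are higher in UV+ upstream, MIR29A, MIR29C, MIR30A, MIR30C2, MIRLET7I and MIR21 are lower, and the libraries of MIRLET7F1 and MIR34A overlap.

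Of the families with more than 1 locus, the pair of miR-221 and miR-222 rose. Their microRNAs target the cell cycle inhibitor mRNA CDKN1B. MIR221 had 102 and 159.6 upstream reads in UV+ libraries and 41.7 and 50.0 in UV- (1.46 ± 0.30, adjusted p = 0.00283), and 95.1 and 127 downstream in UV+ and 65.4 and 91.1 in UV- (0.50 ± 0.29, adjusted p = 0.212). MIR222 had 54.5 and 45.5 upstream in UV+ and 2.78 and 21.3 in UV- (2.47 ± 0.66, adjusted p = 0.0131) and 197 and 154 downstream in UV+ and 39.0 and 37.7 in UV- (2.15 ± 0.27, adjusted p = 0.00153). Both lie in MIR222HG on the X chromosome, and the upstream window of MIR221 shares 164 nt with the downstream window of MIR222. MIR34A, the p53 target among the microRNAs, had 11.4 and 2.90 upstream in UV+ and 2.78 and 3.28 in UV- (0.79 ± 0.84, adjusted p = 0.492). Downstream it had 53.7 and 36.8 in UV+ and 48.7 and 36.1 in UV- (0.08 ± 0.34, adjusted p = 0.872), and the libraries overlapped in both windows.

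Single loci also rose. MIR1204, in an exon of the long noncoding RNA gene PVT1, had 134 and 121 downstream reads in UV+ and 37.6 and 21.3 in UV- (2.13 ± 0.33, adjusted p = 0.00368), and 34.97 and 21.3 upstream in UV+ and 13.9 and 13.1 in UV- (0.96 ± 0.47, adjusted p = 0.13). MIR132, outside any longer annotated gene, had 15.5 and 27.1 downstream in UV+ and 2.78 and 0.820 in UV- (3.03 ± 0.73, adjusted p = 0.021) and rose upstream as well (2.40 ± 0.78, adjusted p = 0.0312). MIR3677, in MIR3677HG, had 8.13 and 14.5 upstream in UV+ and 1.39 and 0.820 in UV- (2.51 ± 0.81, adjusted p = 0.031). MIR132 and MIR3677 entered the table through UV+ alone, and neither was called upstream with DESeq2. In these loci every UV+ library was above every UV- library in the window that was called.

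Several MIR loci with no annotated same-strand exon in the upstream window, picked out after their values were seen, rose in both windows. The lack of such an exon was not particular to them: MIR331, MIR3685, MIR138-1 and MIR30A had none either and were lower in both windows. MIR4521 had 73.2 and 67.7 upstream reads in UV+ libraries and 11.1 and 12.3 in UV- (2.49 ± 0.38, adjusted p = 0.000383) and 35.8 and 43.5 downstream in UV+ and 6.96 and 5.74 in UV- (2.47 ± 0.45, adjusted p = 0.00804). MIR4482 had 56.1 and 71.6 upstream in UV+ and 12.5 and 9.84 in UV- (2.41 ± 0.40, adjusted p = 0.000698) and 53.7 and 42.6 downstream in UV+ and 6.96 and 13.9 in UV- (2.16 ± 0.45). MIR3975, in an intron of the glycosyltransferase gene GALNT1, had 50.4 and 65.8 upstream in UV+ and 12.5 and 16.4 in UV- (1.93 ± 0.39, adjusted p = 0.00269) and 52.0 and 35.8 downstream in UV+ and 5.57 and 13.9 in UV- (2.16 ± 0.50). At all 3 loci each UV+ library was above each UV- library in both windows, and the downstream window of MIR4482 shares 129 nt with that of GSTO1 on the other strand. MIR4514, MIR4795, MIR4679-1 and MIR3929 had few reads, entered the table through UV+ alone and were called higher in both windows, a direction that this entry favored. MIR4514 had 25.2 and 25.2 upstream in UV+ and 4.17 and 0.820 in UV-, and MIR4795 had 11.4 and 17.4 in UV+ and 0 and 1.64 in UV-. MIR4679-1 was at 0 and 0 upstream in UV-, against 10.6 and 8.71 in UV+, which is at least 6.23-fold higher in UV+ when the zero is set to 3 reads over the group. MIR3929 was at 0 in both UV- libraries in both windows and at least 4.44-fold higher in UV+ upstream and 4.75-fold downstream by the same floor. MIR4477B had 33.3 and 30.0 downstream in UV+ and 5.57 and 2.46 in UV- (2.77 ± 0.56, adjusted p = 0.0113).

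The 2 rows named MIR4426, with the most upstream reads of the MIR rows after MIR21, lie in processed pseudogenes of the ribosomal protein gene RPS27A, RPS27AP5 on chromosome 1 and RPS27AP16 on chromosome 16. The row on chromosome 1 had 811 and 561 upstream reads in UV+ libraries and 212 and 319.9 in UV- (1.37 ± 0.25, adjusted p = 0.0013). The row on chromosome 16 had 720.5 and 485 in UV+ and 264 and 236 in UV- (1.24 ± 0.23, adjusted p = 0.00142). Both rose downstream too (1.53 ± 0.46 and 1.21 ± 0.29). The RPS27A row had 298 and 196 upstream in UV+ and 106 and 116 in UV- (1.12 ± 0.25, adjusted p = 0.005). Since pseudogene and parent are near-identical copies, the assignment of these reads is uncertain, and whether they came from RPS27A was not tested.

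The box C/D snoRNA rows were led by SNORD116, an imprinted cluster in the host transcript SNHG14 on chromosome 15, deleted in Prader-Willi syndrome. There were 10 copies with a row within 56.8 kb, and calls went both ways along the cluster. In the middle, SNORD116-14 had 106 and 119 upstream reads in UV+ libraries and 54.3 and 52.5 in UV- (1.06 ± 0.27, adjusted p = 0.00956). SNORD116-18 had 160.2 and 176 upstream in UV+ and 93.2 and 93.5 in UV- (0.84 ± 0.24, adjusted p = 0.0159) and 1016 and 874 downstream in UV+ and 501 and 524 in UV- (0.88 ± 0.19, adjusted p = 0.0144). SNORD116-21 had 379.8 and 361 upstream in UV+ and 213 and 257 in UV- (0.66 ± 0.21, adjusted p = 0.028). These 3 copies were higher in both UV+ libraries than in both UV- libraries in the windows called. SNORD116-20 had 442 and 378 downstream in UV+ and 188 and 212 in UV- (1.03 ± 0.21, adjusted p = 0.0121), while its upstream libraries overlapped. SNORD116-13 had 228 and 205 downstream in UV+ and 137.8 and 137 in UV- (0.65 ± 0.22, adjusted p = 0.0622).

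Toward both ends of the cluster the copies had few reads and were lower or not called, and copies 4, 24 and 30 entered the table through UV- alone. SNORD116-30, 56.8 kb from SNORD116-1, had 0 reads in both UV+ libraries in both windows, against 20.9 and 12.3 upstream and 8.35 and 18.05 downstream in UV-, which is at least 12.5-fold lower upstream and 9.96-fold lower downstream in UV+ with a floor of 3 reads over the group (adjusted p = 0.0034 and 0.0143). SNORD116-4, 8.1 kb from SNORD116-1, had 1.63 and 0 upstream in UV+ and 6.96 and 11.5 in UV- (adjusted p = 0.0412) and was listed at 0 downstream in UV+, at least 3.84-fold lower. SNORD116-24 had 1.63 and 0.967 downstream in UV+ and 15.3 and 13.9 in UV- (-2.78 ± 0.75, adjusted p = 0.0284). SNORD116-1 and SNORD116-26 were not called in a window. The copies are repeats of one sequence, so that reads may be shared among them, and the split along the cluster was seen in the values and was not tested.

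**Figure D4:**
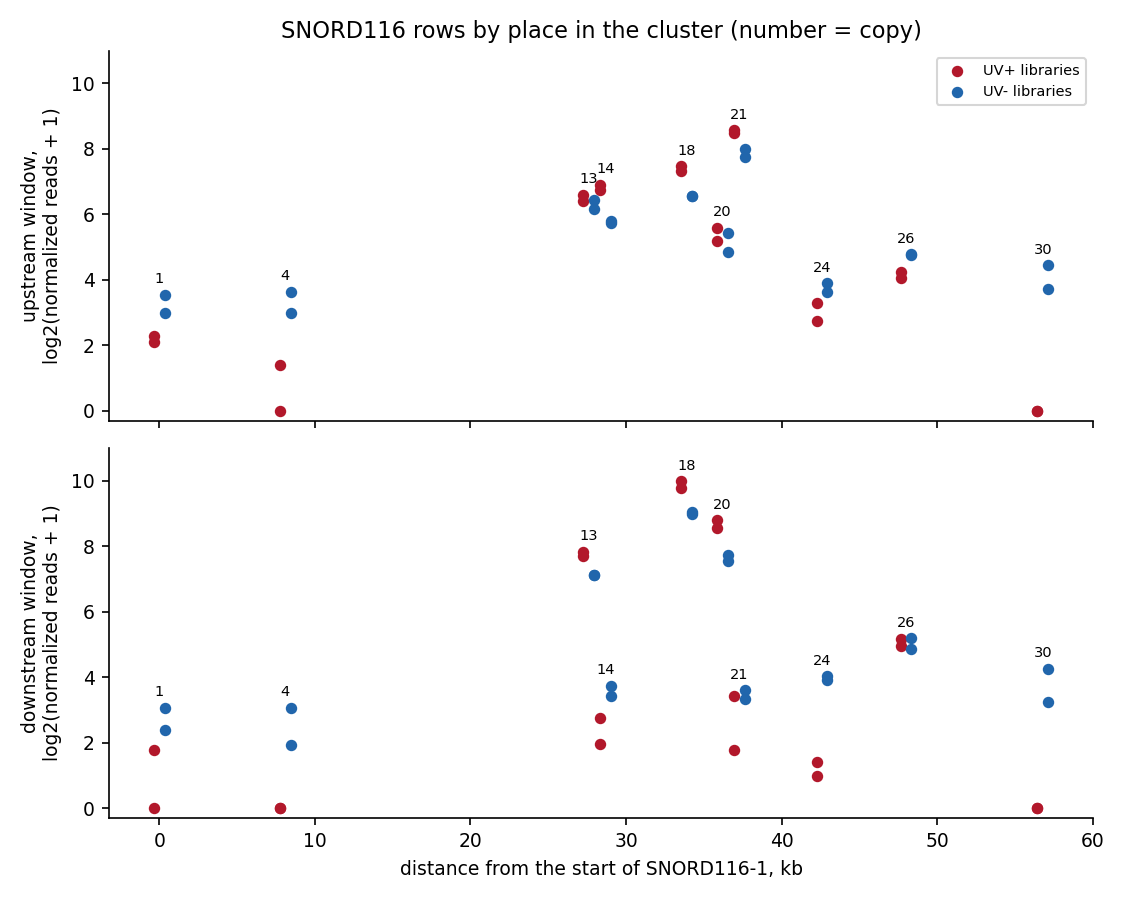
Log2(normalized reads + 1) in each library for the 10 SNORD116 copies with a row, by distance from the start of SNORD116-1 in kb, in the upstream window (top) and the downstream window (bottom), with UV+ libraries in red to the left and UV- libraries in blue to the right of each copy. In the upstream window the copies from 27.6 to 37.3 kb hold the most reads, the calls higher in UV+ in either window lie among them, and copies 4, 24 and 30 are lower in UV+ where they were called.

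Outside SNORD116, the snoRNA calls were SNORA25 and SNORD60, both higher and both in the upstream window alone. SNORA25, SNORA40 and SNORD5 lie in TAF1D, a gene of the RNA polymerase I initiation factor SL1, in stretches annotated as exon over both windows. SNORA25 had 391 and 475 upstream reads in UV+ libraries and 235 and 185 in UV- (1.04 ± 0.22, adjusted p = 0.00338), and 56.1 and 67.7 downstream in UV+ and 77.9 and 59.9 in UV- (-0.15 ± 0.29, adjusted p = 0.726). SNORA40 had 416 and 401 upstream in UV+ and 342 and 348 in UV- (0.24 ± 0.20, adjusted p = 0.353), and SNORD5 had 143 and 94.8 in UV+ and 104 and 101 in UV- (0.18 ± 0.27, adjusted p = 0.628). Only SNORA25 of these 3 rows was called, and its windows overlap those of CEP295 on the other strand. Its downstream window shares 342 nt with the upstream and 158 nt with the downstream window of CEP295. There CEP295 had 13.0 and 4.84 upstream and 4.07 and 37.7 downstream in UV+. In UV- it had 32.0 and 32.0 upstream and 9.74 and 8.20 downstream. What these unlike counts say of strand use was not tested. The TAF1D row had 219 and 175 upstream in UV+ and 241 and 191 in UV- (-0.13 ± 0.23, adjusted p = 0.687). SNORD60, in SNHG19, had 154 and 179.9 upstream in UV+ and 68.2 and 99.3 in UV- (1.01 ± 0.26, adjusted p = 0.0112) and 55.3 and 71.6 downstream in UV+ and 44.5 and 50.9 in UV- (0.40 ± 0.30, adjusted p = 0.345). SNORA76C, in SNHG25, had 65.1 and 87.1 downstream in UV+ and 62.6 and 68.9 in UV- (0.19 ± 0.29), with overlapping libraries. The 4 rows of the imprinted SNORD113 and SNORD114 clusters in MEG8, all low, were not called, with upstream log2 fold changes from -0.10 to 2.23.

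Short antisense and intergenic RNAs made up the rest of the other rows. PCNA-AS1 lies opposite PCNA, the sliding clamp of DNA replication, and had 42.3 and 26.1 downstream reads in UV+ and 0 and 0.820 in UV- (4.67 ± 0.75, adjusted p = 0.00459). Upstream it had 13.8 and 14.5 in UV+ and 18.1 and 6.56 in UV- (0.34 ± 0.60, adjusted p = 0.693). The UV+ libraries were far above the UV- libraries downstream and overlapped them upstream, where an exon of PCNA on the other strand covers 381 nt. The PCNA row rose as well, with 629 and 786 upstream in UV+ and 401 and 517 in UV- (0.63 ± 0.21). The strand use of the counting is not stated, and how reads divide between PCNA and PCNA-AS1 was not tested. LINC00515 had 13.8 and 31.9 upstream in UV+ and 1.39 and 4.92 in UV- (2.55 ± 0.72, adjusted p = 0.0164) and was listed at 0 downstream in both UV- libraries, against 6.51 and 19.3 in UV+, at least 8.35-fold higher. LINC01023 had 8.94 and 7.74 downstream in UV+ and 0 and 0.820 in UV- (2.79 ± 0.80, adjusted p = 0.034). LOC101928837, the longest member, was not called, with 101 and 70.6 upstream in UV+ and 125 and 87.0 in UV-. MIR3190 lies opposite BBC3, the p53 target that encodes PUMA, of which an exon covers 458 nt of its upstream window. MIR3190 had 14.6 and 9.67 upstream in UV+ and 0 in both UV- libraries, at least 7.85-fold higher (adjusted p = 0.00792). MIR5188 had 49.6 and 55.1 upstream in UV+ and 27.8 and 8.20 in UV- (1.71 ± 0.50, adjusted p = 0.0192), a call lost with DESeq2.

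The downstream/upstream ratio, the measure the study used to follow cleavage at a PAS, was then computed for the members, where the gene end is no PAS. In both UV+ libraries the downstream window held more reads than the upstream window at 29 of 91 members (31.9%), against 13.4% of all rows, and in both UV- libraries also at 29 of 91, against 9.43% of all rows. At unadjusted p under 0.05, the threshold of the study, limma gave a higher ratio in UV+ for 4 members (4.4%) and a lower one for 4 (4.4%), against 10.9% and 2.69% of all rows. The higher ones were MIR29C, PCNA-AS1, SNORD114-1 and LINC01023, and the lower ones MIR505, SCARNA2, SNORD116-14 and SNORD116-24. At adjusted p under 0.05, 0 members were called in limma, against 0% of all rows in either direction, and 0 in edgeR and 0 in DESeq2. The variance trend of this fit followed the mean ratio, the default of limma. With 9 other forms of the trend, compared after the calls had been seen, 2 to 8 members were higher and 7 to 11 lower, so that the counts, above all of lower ratios, depended on the form. The 5 members called in all 10 forms were MIR29C and PCNA-AS1, higher, and SNORD116-14, SCARNA2 and MIR505, lower.

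MIR29C had log2 ratios of 2.98 and 3.17 in UV+ and 0.87 and 0.93 in UV- (2.17 ± 0.65, adjusted p = 0.316), with the UV+ libraries above the UV- libraries. PCNA-AS1 had 1.55 and 0.81 in UV+ and -4.25 and -2.05 in UV- (4.33 ± 0.90, adjusted p = 0.307). SNORD116-14 had -4.00 and -4.94 in UV+ and -2.36 and -2.01 in UV- (-2.28 ± 0.69, adjusted p = 0.316). The downstream reads behind it were few, with 5.69 and 2.90 in UV+ and 9.74 and 12.3 in UV-. SCARNA2 had log2 ratios of -7.10 and -9.20 in UV+ and -6.28 and -5.69 in UV- (-2.16 ± 0.88, adjusted p = 0.362), over the few downstream reads given above. MIR505 had -1.63 and -2.77 in UV+ and 0.00 and 1.64 in UV- (-3.01 ± 0.85, adjusted p = 0.31), from at most 14.6 normalized reads in any library and window. The other called ratios also came from few reads, and SNORD114-1 was called in 1 form only. MIR21, which had many reads in both windows, had log2 ratios of -0.92 and -1.03 in UV+ and 0.15 and -0.09 in UV-, both UV+ libraries below both UV- libraries, and was called in 7 of the 10 forms but not in the default one (adjusted p = 0.534). SNORA25 was called in 9 of them, the default form excepted.

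**Figure D5:**
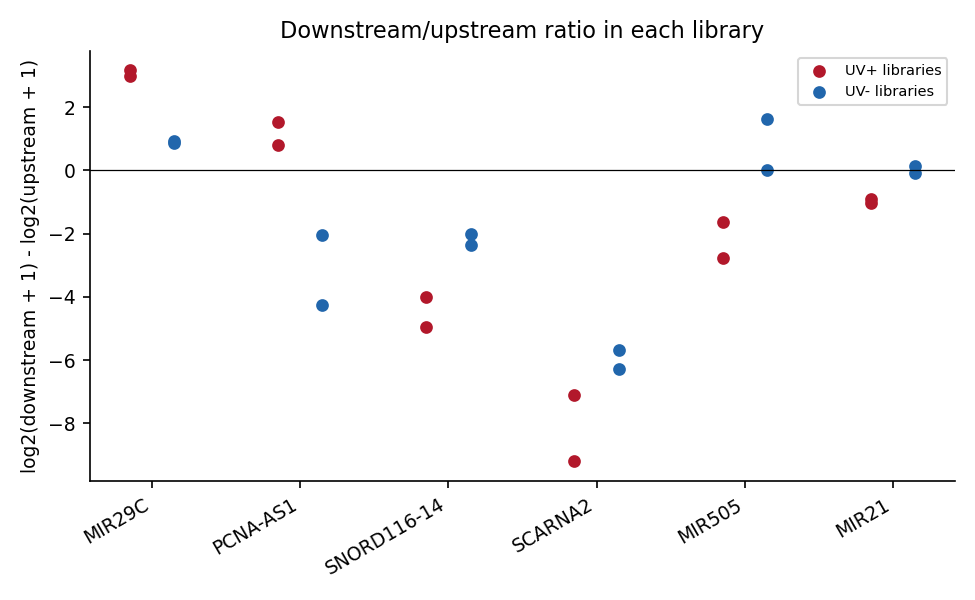
Log2(downstream + 1) minus log2(upstream + 1) of normalized reads in each library, UV+ in red and UV- in blue, for the 5 members called under all 10 forms of the variance trend and for MIR21. MIR29C and PCNA-AS1 are higher in both UV+ libraries than in both UV- libraries, and the other 4 are lower.

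The genes that make and process small RNAs were taken from lists by role, of which 37 of 88 symbols had a row. Upstream, 4 were higher and 7 lower, and downstream 7 were higher and 1 lower (median log2 fold change 0.22 and 0.62). Upstream these are 10.8% and 18.9%, near the 11.7% and 20.7% of all rows, and downstream 18.9% and 2.7%, against 11.7% and 9.41%. The Argonaute genes, whose proteins bind mature microRNAs, fell upstream: AGO2 had 15.5 and 6.77 reads in UV+ and 55.7 and 44.3 in UV- (-2.16 ± 0.47, adjusted p = 0.00418), AGO1 had 4.88 and 0 in UV+ and 13.9 and 20.5 in UV- (-2.88 ± 0.88, adjusted p = 0.0237), and AGO3 had 2.44 and 6.77 in UV+ and 20.9 and 21.3 in UV- (-2.10 ± 0.64, adjusted p = 0.0236). The other measured microRNA processing genes did not fall. Downstream, RAN (1.58 ± 0.45, adjusted p = 0.0323) and DDX5 (1.55 ± 0.41, adjusted p = 0.0271) were called higher, and DDX17 was called in neither window. Of 5 measured genes for snRNA transcription and 3' processing, SNAPC1, INTS3 and INTS6 fell and SNAPC5 rose upstream. SNAPC1 and SNAPC5 encode subunits of the complex that activates snRNA promoters. SNAPC5 had 176 and 116 in UV+ and 27.8 and 24.6 in UV- (2.41 ± 0.31, adjusted p = 0.000127), and SNAPC1 had 0.813 and 0 in UV+ and 13.9 and 9.84 in UV- (-3.24 ± 0.87, adjusted p = 0.0129). AGO1, SNAPC1 and INTS6 upstream and INTS3 downstream stayed under 10 reads in UV+. These genes thus entered the table through UV- alone, and their p-values are no support for the fall. Of the snoRNP genes, 0 of 2 measured box C/D genes, 1 of 4 box H/ACA genes and 1 of 3 assembly genes were called upstream. NOP10, a core protein of box H/ACA particles, had 394 and 267 in UV+ and 173 and 191 in UV- (0.83 ± 0.24, adjusted p = 0.0166). NOLC1, a snoRNP assembly factor, had 319.6 and 266 in UV+ and 175 and 165 in UV- (0.77 ± 0.22, adjusted p = 0.0158). With 1.39 and 0 downstream reads in UV-, NOLC1 entered the table through UV+ alone. So did NHP2L1 (0 and 0 downstream in UV-), EXOSC1 (4.17 and 2.46) and NHP2 (5.57 and 4.10). NOLC1 and these genes make up most of the higher calls downstream, so that the downstream share of the lists is a description. None of the 5 measured U12 spliceosome genes was called in a window (upstream log2 fold changes from -0.43 to 0.22).

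Genes known to host small RNAs had rows for 28 of 52 symbols, of which 11 were higher and 3 lower upstream and 11 were higher and 1 lower downstream (median log2 fold change 0.60 and 0.79). These are 39.3% and 10.7% upstream, against 11.7% and 20.7% of all rows, and 39.3% and 3.57% downstream, against 11.7% and 9.41%. MIR22HG, the host of miR-22, had 176 and 196 upstream in UV+ and 51.5 and 23.0 in UV- (2.40 ± 0.34, adjusted p = 0.000262). With 0 and 0.820 downstream reads in UV-, MIR22HG entered the table through UV+ alone, as did SNHG15, called higher upstream, with 2.78 and 2.46. SNHG5 had 168 and 90.9 in UV+ and 41.7 and 26.2 in UV- (1.87 ± 0.35, adjusted p = 0.00167), and EPB41L4A-AS1 had 203 and 189 in UV+ and 90.5 and 74.6 in UV- (1.24 ± 0.24, adjusted p = 0.00203). Both host snoRNAs, and in each the UV+ libraries were above the UV- libraries. Of the 3 host genes called lower upstream, VMP1, the host of MIR21, had 1445 and 1747 in UV+ and 3504 and 3546 in UV- (-1.15 ± 0.20, adjusted p = 0.000953). The others were PANK3 (-0.85 ± 0.27, adjusted p = 0.0265) and SMC4 (-1.02 ± 0.36, adjusted p = 0.043).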

How the data were processed

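Nuclear RNA of A549 cells was sequenced from 2 UV+ and 2 UV- libraries with a kit that keeps strand information. According to the submitters' processing notes and the methods of the study, reads were trimmed with cutadapt, aligned to hg19 (GRCh37) with TopHat2, filtered with SAMtools at a mapping quality of 20, and counted with featureCounts in R 3.4.0 in 500-nt windows on either side of each gene end. Genes with a downstream window on another gene were discarded, and a gene was kept with at least 10 reads in both windows in either condition. The strand setting of the counting is not given in the sources used here. The deposited signal values are counts of reads divided by a size factor of each library. Deposited columns of the authors' own comparison, made with DESeq2, hold log2 fold changes, a Wald score, p-values and mean signal, and none was used. The cells of 3 rows were shifted and 3 symbols had turned into dates, and these rows stayed in the fits without a name.

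Whole reads were recovered from 100% of values within a tolerance of 1e-06. Both windows and the downstream/upstream ratio were fitted over all 4208 rows after adding a pseudocount of 1 and taking log2, with limma 3.58.1 in R 4.3.3 and its default variance trend, and p-values were adjusted by Benjamini-Hochberg. Windows were called at an adjusted p under 0.05 and the ratio at an unadjusted p under 0.05, the threshold of the study. For the ratio, 9 other forms of the trend were compared after the calls had been seen, among them the one on the mean log2 downstream reads, which gave the same number of calls over all rows as an earlier account of these data. Values after ± are standard errors of the fit (n = 2 libraries per condition), an exact permutation test of 2 against 2 cannot fall below 0.33, and the counts of reads, with no molecular identifiers, limit precision at low values. As alternatives, the pseudocount was set to 0.5 or 5, rows under a mean of 10 were left out, and the tests were run as limma without the trend, edgeR 4.0.16, TMM factors, DESeq2 1.42.0, with a replicate block, with size factors set without the small rows and with each library left out. The fits were tested on simulated data.

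Members named were, per window and among those with a mean of at least 10, up to 6 called members with the smallest p per direction and group, the 3 and 2 most abundant of each group upstream and downstream, up to 5 per direction with the smallest ratio p, and MIR21, MIR34A, TERC, RNU11, RNU12 and RNU4ATAC. Members named to complete a seed family, a cluster, a host gene or a set of calls, and the neighbouring genes, were chosen after their values were seen. Members and gene lists were chosen with earlier results of these data known. Hosts and exons came from GENCODE 44 lifted to GRCh37.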

Additional observations from a re-analysis of the deposited data

How the results depend on the processing

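No named call changed direction under any alternative, and the cause of a changed count was not tested. Since the libraries of a called window did not overlap, leaving out a library could not have reversed its direction, so that this is no support for the calls. Leaving out each library in turn gave 0 to 25 higher and 0 to 14 lower upstream (27 and 12 with all libraries), 1 to 6 higher and 0 to 2 lower downstream (21 and 13), and 1 to 7 higher and 1 to 7 lower for the ratio (4 and 4). The 0 counts upstream came without either UV- library, when limma called 1 and 2 of all 4208 rows, and without UV+ replicate 2 there were 15 higher. Limma without the trend gave 11 higher and 4 lower downstream. DESeq2 gave 5 lower downstream and 2 higher and 2 lower for the ratio, and lost the upstream calls of MIR132, MIR29A, MIR3677, MIR3929, MIR4795, MIR5188 and SNORD116-4 and the downstream calls of MIR138-1, MIR29B1, MIR30A, MIR30C2, MIR3685, MIR4795, SNORD116-24 and MIR4426 on chromosome 1, while 6 downstream calls were given no adjusted p. A pseudocount of 0.5 lost the downstream calls of MIR30C2, MIR3685 and MIR4426 on chromosome 1. For the ratio, TMM factors gave 2 higher and 15 lower, edgeR 7 lower, a pseudocount of 5 gave 8 lower and a mean of at least 10 gave 2 lower.

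Of the other forms of the variance trend for the ratio, added after seeing the data, both on the downstream reads gave 8 higher and 11 lower, the upstream reads 2 higher and 8 lower, the mean log2 reads of both windows and the summed log2 mean reads 9 lower, the log2 of the smaller mean reads 7 lower, and the remaining 3 forms 8 lower. Same-numbered libraries did not deviate together (correlation of 0.033 upstream and 0.071 downstream), so that the numbers do not pair them. With the replicate number as a block, 26 members were higher and 13 lower upstream, 23 and 14 downstream and 3 and 3 for the ratio, where SCARNA2 and SNORD114-1 were no longer called. TMM factors moved the median log2 fold change of all rows from -0.24 to -0.03 upstream and from 0.38 to 0.06 for the ratio. Depth limits members with few reads: 58 of 91 had a mean of at least 10 upstream and 57 downstream.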
